A study of Mus musculus with 6 samples.

Results

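The genes described here are 42 transcripts of striated muscle, the contractile, calcium-handling and energy genes of skeletal muscle and heart, measured on arrays of mouse liver RNA. A probe was a member if its array design accession mapped to 1 of the 42 listed symbols. The members had 55 of the 39429 non-control probes and made up 42 of the 32095 genes with a probe. They were chosen by their measured levels, which stood high on 2 of the 6 arrays, the first wild-type array (WT 1) and the third knockout array (KO 3), so the comparison of these arrays with the other 4 is a description and carries no test. A gene with several probes is represented by the one of highest mean level.

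The study compared livers of wild-type C57Bl/6 mice with livers of mice of the same facility that carry a knockout of Itpr2, which encodes the type 2 inositol trisphosphate receptor, a calcium release channel of the endoplasmic reticulum. Each group had 3 mice, all 23 months old, kept untreated on a standard diet in a pathogen-free unit as part of a survival cohort, and each liver was frozen before total RNA was extracted. The labels describe the knockout only by the gene name, and no allele, promoter or Cre line is given in the sources used here. Each array was hybridised with the RNA of 1 mouse in 1 colour.

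Striated muscle contracts when calcium released from the sarcoplasmic reticulum binds troponin C, troponin I and troponin T shift on actin and tropomyosin, and myosin heads of the thick filament pull on the thin filament. Most of these proteins exist as isoforms that mark fast-twitch fibres, slow-twitch fibres or cardiac muscle, and several slow-fibre isoforms are also those of the heart. Hepatocytes do not assemble sarcomeres, and most of these isoforms are therefore used as markers of muscle rather than of liver.

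The RefSeq promoter table (build GRCm38.p6) held 40 promoters for 32 of the 42 members, and it held none for Tnnt3, Tnni2, Actn3, Tcap, Neb, Cox6a2, Sln, Myoz1, Myot or Myom2. The 250 bases before the start site are printed, 5′ to 3′ on the strand of the gene, for 1 member of each isoform class. The classes varied in how far WT 1 and KO 3 lay above the other 4 arrays. The members with the largest difference and a single promoter were taken for the fast, slow, slow-and-heart and shared classes, and Myh6, which had the smallest, for the heart class. Capitals mark matches, on either strand, to the E-box CAGCTG bound by myogenic factors, the MCAT element CATTCC bound by TEAD factors, the MEF2 site or the CArG box bound by serum response factor.
Myh2 promoter, chr11:67170777-67171026, plus strand: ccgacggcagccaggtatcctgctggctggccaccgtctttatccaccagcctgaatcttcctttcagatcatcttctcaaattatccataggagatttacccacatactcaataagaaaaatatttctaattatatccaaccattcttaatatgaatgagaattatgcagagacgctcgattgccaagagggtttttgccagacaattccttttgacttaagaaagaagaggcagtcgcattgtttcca
Mybpc1 promoter, chr10:88605153-88605402, minus strand: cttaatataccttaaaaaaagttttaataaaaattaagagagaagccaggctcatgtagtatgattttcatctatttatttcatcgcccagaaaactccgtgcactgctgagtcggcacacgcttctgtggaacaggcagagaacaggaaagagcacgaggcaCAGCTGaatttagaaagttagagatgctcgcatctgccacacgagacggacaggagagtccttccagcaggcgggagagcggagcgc
Myl3 promoter, chr9:110763428-110763677, plus strand: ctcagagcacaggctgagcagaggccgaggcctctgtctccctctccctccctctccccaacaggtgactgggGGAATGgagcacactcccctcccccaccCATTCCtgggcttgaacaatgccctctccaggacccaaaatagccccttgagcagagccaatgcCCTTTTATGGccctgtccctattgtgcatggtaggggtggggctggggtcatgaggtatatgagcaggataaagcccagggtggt
Ckm promoter, chr7:19410844-19411093, plus strand: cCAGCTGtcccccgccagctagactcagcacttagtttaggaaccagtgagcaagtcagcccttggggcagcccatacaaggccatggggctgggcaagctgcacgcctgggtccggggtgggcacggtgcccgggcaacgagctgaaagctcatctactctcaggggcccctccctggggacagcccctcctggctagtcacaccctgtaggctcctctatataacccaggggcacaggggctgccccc
Myh6 promoter, chr14:54966608-54966857, minus strand: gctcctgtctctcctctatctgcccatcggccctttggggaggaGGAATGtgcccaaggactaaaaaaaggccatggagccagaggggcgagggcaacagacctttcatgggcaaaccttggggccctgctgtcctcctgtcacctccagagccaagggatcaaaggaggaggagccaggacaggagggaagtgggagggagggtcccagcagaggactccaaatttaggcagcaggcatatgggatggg
The Myl3 stretch held 2 MCAT matches and 1 CArG match, the Mybpc1 and Ckm stretches held 1 E-box each, the Myh6 stretch held 1 MCAT match, and the Myh2 stretch held none. None of these matches overlapped another. Over the members' promoters, the E-box was found in 16 of 40, or 40.0%, against 13.0% of all 32851 promoters of the table. The MCAT element was found in 12 of 40, or 30.0%, against 12.6% of all promoters. The CArG box was found in 7 of 40, or 17.5%, against 1.47%, and the MEF2 site in 4 of 40, or 10.0%, against 2.92%. Some members contributed several promoters, so these are shares of promoters and not of genes, and a match is a string of letters in this window, not a site known to be bound.

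The probes well above background made up 57.5% to 59.5% of each array, with no saturated spot. The 75th percentile of the processed signal ran from 253 on KO 3 to 356 on WT 1, with the other 4 arrays between 332 and 345. WT 1 lay on slide 1 with WT 2 and KO 1, and KO 3 lay on slide 2 with WT 3 and KO 2. The scanner files and the authors' deposited table did not carry the same labels for one pair of arrays. The column for KO 2 of the authors' deposited table correlated with the scanner file of KO 3 at r = 0.999 and with that of KO 2 at -0.08, across the 20644 probes of the table, and the column for KO 3 did the opposite. In the authors' deposited table the members were therefore high in the columns WT 1 and KO 2, in 38 of the 40 members it held. Throughout, KO 2 and KO 3 are the arrays as labelled in the scanner files, and both belong to the knockout group under either labelling. On the log2 scale the Itpr2 probe read 3.04, 3.07 and 3.08 on the wild-type arrays. It read 2.54, 2.38 and 2.20 on KO 1, KO 2 and KO 3. Each knockout level lay below each wild-type level, and the share of all genes that separate by genotype was not counted. The sources used here do not place this probe inside or outside the deleted stretch. Hepatocyte genes were at the top of every array, and Alb (albumin) read between 7.83 and 8.43.

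All levels are on the log2 scale, with the 75th percentile of processed signals on that array subtracted, so a level of 0 is that percentile, and levels of different probes are not compared with each other. The gap of a gene is the lower of its levels on WT 1 and KO 3 minus the highest of its levels on the other 4 arrays, and is above 0 only if both arrays lie above each of the others. The gap was above 0 for 38 of the 42 members and above 2 for 37 of them. The backgrounds for these counts, over the 19249 genes well above background on at least 2 arrays, were 9.71% for a gap above 0 and 0.758% for a gap above 2. Since the members were listed on these levels, nothing is read from that difference. The median gap of the members was 6.54, from -0.89 for Myh6 to 11.20 for Mb, and the median over all genes was -0.37. A gap over arrays that are not well above background is a difference from the background there, and its size depends on the background correction. The median gap was 3.14 for the 15 members well above background on all 6 arrays, and 2.05 with normexp background correction before quantile normalization. Nebulin (Neb), with a gap of 1.07, was the member just inside, and Mylpf, with -0.28, the member just outside. On WT 1, 41 of the 42 members were well above background, on KO 3 all 42 were, and on each of the other 4 arrays 16 or 17 were. For 24 members none of those 4 arrays was well above background.

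The summed signal of the 42 members was 0.129% of the signal of all probes on WT 1 and 0.125% on KO 3, and lay between 0.00178% and 0.00207% on the other 4 arrays. The shares on WT 1 and KO 3 were close to each other and far above the rest. In bulk RNA, fewer cells of a type and less RNA per cell cannot be told apart. The choice of the members used these levels, so the values within each slide are a description too. Within slide 1, 39 of 42 members were higher on WT 1 than on WT 2 and KO 1, by a median of 7.18 over the higher of these, and 35.3% of all genes were. Within slide 2, 40 of 42 members were higher on KO 3 than on WT 3 and KO 2, by a median of 6.79, and 39.5% of all genes were.

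**Figure D1:**
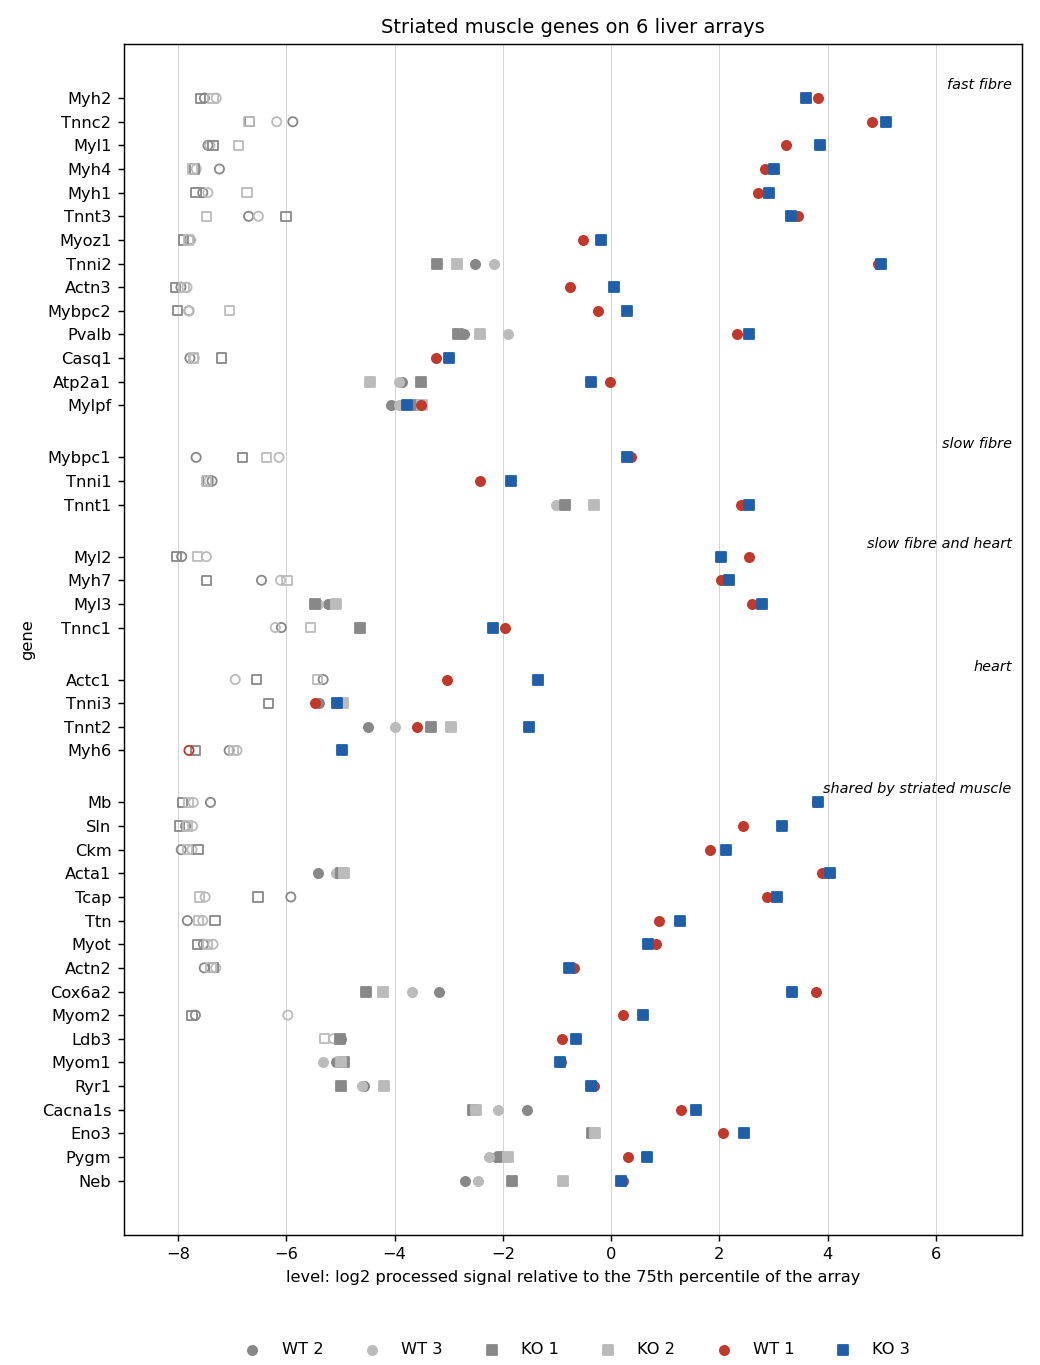
Level of each of the 42 members (log2 processed signal relative to the 75th percentile of the array, horizontal axis) on the 6 arrays, by isoform class. Circles are wild-type and squares knockout arrays, filled where the probe was well above background and open where it was not; WT 1 (red) and KO 3 (blue) lie together to the right of the other 4 arrays (grey) in 38 rows.

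Among the 11 thin filament genes, 9 had a gap above 0, with a median gap of 2.71. Skeletal alpha-actin (Acta1), the actin of adult skeletal muscle, read 3.90 on WT 1 and 4.05 on KO 3, against -5.42 on WT 2, -5.08 on WT 3, -4.99 on KO 1 and -4.93 on KO 2. It was 456-fold higher on WT 1 and 505-fold higher on KO 3 than on the highest of the other 4 arrays, on all of which it was well above background. The fast troponin C, Tnnc2, which binds the activating calcium in fast fibres, read 4.81 and 5.08 on WT 1 and KO 3 and -5.88, -6.18, -6.68 and -6.69 on WT 2, WT 3, KO 1 and KO 2. Where no other array was well above background, a fold is a lower bound, taken against the highest of the other 4 arrays. Each of these was set at the gene's own level or at the lowest level at which probes of that array were well above background, whichever was higher. Tnnc2 was at least 1389-fold higher on WT 1 and at least 1676-fold higher on KO 3. Its levels on the 2 arrays did not overlap those of the others.

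The fast troponin I, Tnni2, the inhibitory subunit of the complex, was well above background everywhere and read 4.93 and 4.99 on WT 1 and KO 3 against -2.52, -2.17, -3.22 and -2.84 on WT 2, WT 3, KO 1 and KO 2. This was a measured difference of 137-fold for WT 1 and 143-fold for KO 3 over the highest other array. The fast troponin T, Tnnt3, which ties the complex to tropomyosin, was at least 544-fold and 497-fold higher. The slow subunits were high on the same arrays. Tnnt1, the slow troponin T, read 2.40 and 2.54 on WT 1 and KO 3 and between -1.01 and -0.31 on the other 4, and Tnni1, the slow troponin I, was at least 9.23-fold and 13.7-fold higher. Tnnc1, the troponin C of slow fibres and heart, read -1.96 and -2.18 on WT 1 and KO 3 and reached -4.64 on KO 1, the only other array on which it was well above background. Nebulin, the giant protein along the thin filament, had the smallest gap above 0 and read 0.23 and 0.18 against -2.69, -2.45, -1.84 and -0.89 on WT 2, WT 3, KO 1 and KO 2.

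The thin filament genes of the heart were different. Cardiac troponin T, Tnnt2, read -3.58 on WT 1, which lay below KO 1 at -3.32 and KO 2 at -2.97, and -1.51 on KO 3, the highest of the 6. Cardiac troponin I, Tnni3, read -5.48 on WT 1 and -5.07 on KO 3, within the range of -6.33 to -4.96 of the other 4 arrays. Cardiac alpha-actin, Actc1, which is also the actin of developing skeletal muscle, read -3.03 on WT 1 and -1.36 on KO 3, and was not well above background on the others, so that it was at least 4.91-fold and 15.6-fold higher. Of these 3 genes only Actc1 had both arrays above the other 4.

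Of the 11 thick filament genes 9 had a gap above 0, and the median gap was 8.02. The adult fast myosin heavy chains Myh1, Myh2 and Myh4, the motors of the faster fibre types, were high on both arrays and not well above background on any other. Myh2 read 3.83 on WT 1 and 3.59 on KO 3 against -7.51, -7.30, -7.59 and -7.35 on WT 2, WT 3, KO 1 and KO 2, at least 699.9-fold and 596-fold higher. Myh1 was at least 323-fold and 375-fold higher, and Myh4 at least 356-fold and 399.7-fold. These genes are near-identical copies in a cluster, so how much of each signal belongs to which of them is uncertain. Myh7, the myosin of slow fibres and of the ventricle, read 2.03 and 2.17 on WT 1 and KO 3 and between -7.48 and -5.99 on the others. Its cardiac neighbour Myh6, the main myosin of the adult mouse heart, was not well above background on WT 1, where it read -7.80, nor on the other 4 arrays, which read -7.06, -6.91, -7.68 and -6.98. On KO 3 it read -4.97, just above background. The slow and the cardiac myosin therefore parted on WT 1.

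The light chains followed their heavy chains. Myl1, the fast essential light chain, read 3.23 on WT 1 and 3.85 on KO 3, at least 464-fold and 713-fold above the others. Myl2, the regulatory light chain of slow fibres and ventricle, read 2.56 and 2.03 on WT 1 and KO 3 against -8.03 to -7.48 on the others. Myl3, the essential light chain of the same muscles, was measured on all 6 arrays and was 204-fold and 234-fold higher. Mylpf, the fast regulatory light chain, stood apart from these. Its probe with the higher mean, designed on a predicted transcript model, read -3.51 on WT 1 and -3.78 on KO 3, within the -4.06 to -3.50 of the others. Its second probe, designed on the curated transcript, read -3.62 and -3.19 on WT 1 and KO 3 and at most -7.79 elsewhere, a gap of 4.18. The myosin-binding proteins C of fast fibres (Mybpc2) and slow fibres (Mybpc1) were at least 41.8-fold and 63.3-fold higher on WT 1 and at least 60.2-fold and 60.4-fold higher on KO 3.

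All 9 genes of the Z disc, the M band and titin had a gap above 0, from 3.99 for Myom1 to 8.79 for Tcap. Telethonin (Tcap), which caps titin at the Z disc, read 2.87 and 3.07 on WT 1 and KO 3 and -5.92, -7.50, -6.52 and -7.60 on WT 2, WT 3, KO 1 and KO 2, at least 362-fold and 413-fold higher. Alpha-actinin 3 (Actn3), the cross-linker of fast fibres, read -0.77 and 0.06 and was at least 29.0-fold and 51.4-fold higher. Alpha-actinin 2 (Actn2), which all striated fibres hold, was at least 30.7-fold and 29.0-fold higher. Titin (Ttn) read 0.88 on WT 1 and 1.27 on KO 3 against -7.83 to -7.32 on the others. The M-band protein Myom1 was well above background on all 6 arrays and was 16.2-fold and 15.9-fold higher. Myotilin (Myot), Myoz1, Ldb3 and Myom2 had gaps of 8.03, 7.24, 4.09 and 6.19, and the spot of Myom2 on KO 2 was left out as an outlier.

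The 6 genes of calcium release and uptake all had a gap above 0, with a median of 3.90. Ryr1, the calcium release channel of skeletal muscle, read -0.32 and -0.37 on WT 1 and KO 3 against -4.57, -4.60, -4.98 and -4.20 on WT 2, WT 3, KO 1 and KO 2, 14.8-fold and 14.3-fold higher. Cacna1s, the voltage sensor that opens it, was 7.17-fold and 8.68-fold higher. Atp2a1, the fast-fibre pump that returns calcium to the reticulum, was 11.2-fold and 8.84-fold higher. Sarcolipin (Sln), the small inhibitor of that pump, read 2.43 on WT 1 and 3.15 on KO 3 and between -7.97 and -7.73 on the others, at least 266-fold and 438-fold higher. Calsequestrin 1 (Casq1), which stores calcium in fast fibres, was at least 5.27-fold and 6.21-fold higher. Parvalbumin (Pvalb), the soluble calcium buffer of fast fibres, was 18.8-fold and 21.9-fold higher.

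The 5 energy genes also all had a gap above 0. Myoglobin (Mb), the oxygen store of oxidative fibres and heart, read 3.80 on WT 1 and 3.83 on KO 3 and -7.40, -7.72, -7.91 and -7.81 on WT 2, WT 3, KO 1 and KO 2, at least 686-fold and 703-fold higher. The muscle creatine kinase Ckm read 1.83 and 2.12 against -7.94 to -7.63, at least 176-fold and 214-fold higher. Cox6a2, the cytochrome oxidase subunit of heart and muscle, was measured on all 6 arrays and was 126-fold and 92.7-fold higher. The muscle enolase Eno3, well above background on all 6 arrays, read 2.07 and 2.45 on WT 1 and KO 3 against -0.34, -0.36, -0.35 and -0.30 on WT 2, WT 3, KO 1 and KO 2. Its difference was 5.18-fold and 6.72-fold, among the smallest of the members, and the 4 low arrays lay within 0.06 of each other. The muscle glycogen phosphorylase Pygm was 4.68-fold and 5.96-fold higher.

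Members with several probes mostly repeated the pattern. Of the 55 probes 51 had a gap above 0, and 11 members had more than 1 probe. Both probes of Tnnt3 (gaps of 9.34 and 11.07), Myl1 (10.11 and 6.36), Cacna1s (2.84 and 3.17) and Neb (1.07 and 1.01) did so. Titin had 4 probes, of which those with gaps of 8.19 and 5.56 were well above background on WT 1 and KO 3, while that with a gap of 0.51 was well above background on no array and that with a gap of 0.77 on KO 3 only. Parvalbumin had a gap of 4.23 on its brighter probe, which was well above background on all 6 arrays, and of 7.38 on the other, which was so only on WT 1 and KO 3. The size of a difference therefore depended on the probe.

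WT 1 and KO 3 come from mice of different genotype. The difference KO 3 minus WT 1 within a probe had a median of 0.20 over the 42 members, against 0.04 over all genes well above background on both arrays. It was under 0.5 in size for 33 of 42 members, a share near the 77% of those genes, and 29 of 42 members were higher on KO 3, against 54.4% of those genes. By isoform class the median difference was 0.22 for the 14 fast-fibre genes, 0.14 for the 3 slow-fibre genes, -0.04 for the 4 genes of slow fibre and heart, and 0.19 for the 17 genes shared by striated muscles. Fast, slow and shared genes thus read at like levels on both arrays, as did most genes well above background on both. These are differences between 2 single arrays, with no replicate behind them.

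The 4 heart genes differed from this, with a median KO 3 minus WT 1 difference of 1.87. Their differences were 2.82 for Myh6, 2.07 for Tnnt2, 1.67 for Actc1 and 0.41 for Tnni3, while the other members ran from -0.52 for Myl2 to 0.83 for Actn3. The value of Myh6 is a difference from the background on WT 1, and the second Myh6 probe, well above background on no array, differed by 0.31. The heart genes were dim, with a median level of -4.53 on WT 1 and -3.24 on KO 3, and the difference fell to 0.33 when the background was corrected with normexp before quantile normalization. The heart class rests on 4 genes and was not tested. Heart markers outside the members did not stand out on the 2 arrays. None of the 8 (Nppb, Nppa and Nkx2-5 had the largest gaps, at -0.23, -0.30 and -0.47) had both arrays above the other 4, and only 1 was well above background on both.

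**Figure D2:**
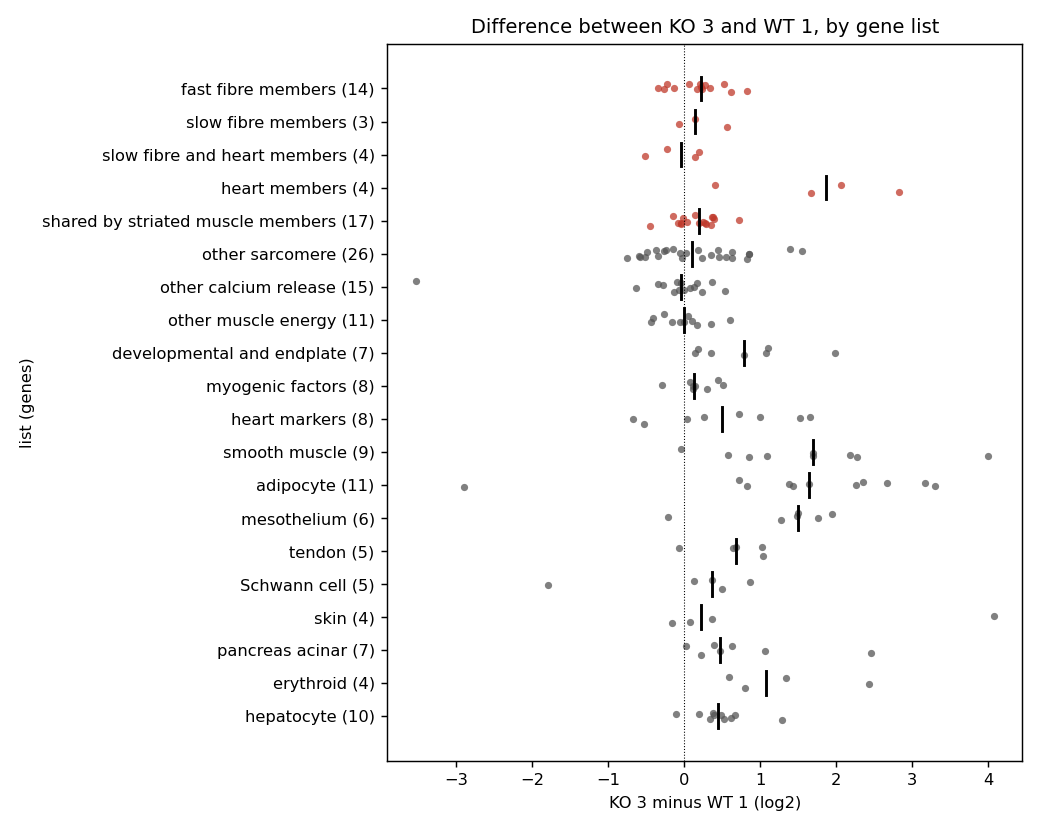
Difference between KO 3 and WT 1 within each probe (log2, horizontal axis) for the isoform classes of the members (red) and for the other gene lists (grey), with the number of genes in parentheses; each point is a gene and the black bar is the median. The fast, slow and shared members lie near 0. Further to the right lie, among others, the heart members (median 1.87) and the smooth muscle (1.69), adipocyte (1.64), mesothelium (1.49) and erythroid (1.07) lists.

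Muscle genes outside the members followed the 2 arrays as well. Of 52 such genes with a probe, 43 had a gap above 0 and 27 a gap above 2. Their median gap was 2.15 and their median KO 3 minus WT 1 difference 0.00. Among the 46 well above background on at least 2 arrays, 39 had a gap above 0, against 9.71% of all such genes. The lists were chosen with earlier results known, so nothing is read from that difference. Among 26 further sarcomere genes 20 had a gap above 0 (19 of the 24 well above background on at least 2 arrays), among them Myoz2 (4.97) and Smpx (4.90). Among 15 further calcium-handling genes 13 did (10 of the 11 well above background on at least 2 arrays), led by Hrc (5.78), caveolin 3 (Cav3, 4.78) and Jsrp1 (4.16). One of them, the calcium channel subunit Cacng1, singled out after its values were seen, read -0.70 on WT 1 and -4.23 on KO 3, and the other 4 arrays read -7.52 to -5.66. Among 11 further energy genes 10 did, led by the mitochondrial creatine kinase Ckmt2, which read 2.73 and 2.29 and was at least 328-fold and 242-fold higher. Fabp3 (gap 7.22), the fatty acid carrier of heart and muscle, and Pgam2 (5.99) came next.

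Myosin heavy chain 8 (Myh8), the perinatal form, read 3.96 and 4.10 on WT 1 and KO 3 with a gap of 10.12, but it is a near-identical neighbour of the adult fast chains and how much of its signal is its own is uncertain. The embryonic chain Myh3 had a gap of 1.15 and the acetylcholine receptor subunit Chrna1 a gap of 1.89, both dim. Of the factors that drive muscle fate, Myf6 (gap 2.59), which mature fibres transcribe, was well above background on WT 1 and KO 3 only, and Mef2c, which other tissues also hold, had a gap of 0.54. Myod1, Myog, Myf5, Pax3 and Pax7, the factors of progenitors and early differentiation, were not well above background on any array, with levels between -7.89 and -6.73.

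When all named genes were ranked by gap, 25 of the first 50 were members, 12 belonged to the other muscle lists, 1 was Myh8, and 12 were in none of the lists. Those in no list included BC048679 (6.21), Dhrs7c (5.47), Alpk3 (5.37), Itgb1bp2 (5.31), the dystrophin-associated Sgca (4.98), Klhl31 (4.89), Vgll2 (4.64), Myadml2 (4.62), Smtnl1 (4.57) and the splicing factor Rbfox1 (4.55). Each of these 10 was well above background on WT 1 and KO 3 and on none of the other 4 arrays. Their KO 3 minus WT 1 differences lay between -0.91 for Vgll2 and 0.30 for Smtnl1.

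**Figure D3:**
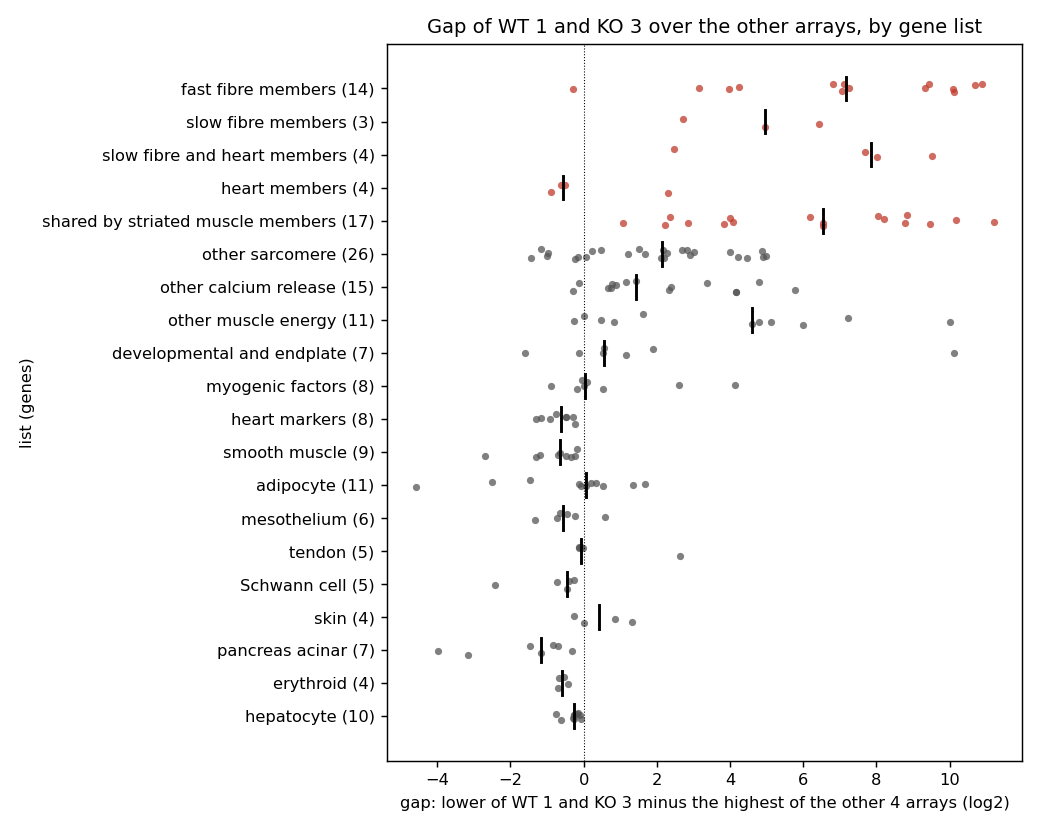
Gap of each gene, the lower of its levels on WT 1 and KO 3 minus the highest of its levels on the other 4 arrays (log2, horizontal axis), for the isoform classes of the members (red) and the other gene lists (grey), with the number of genes in parentheses and the median as a black bar. The fast, slow, slow-and-heart and shared members have medians of 7.17, 4.95, 7.85 and 6.53, and the lists of other tissues have medians from -1.17 (pancreas) to 0.43 (skin).

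Lists of other cell types had smaller median gaps than the members. Some of their genes were high on KO 3, and some adipocyte genes were higher on both arrays than on the other 4. None of 9 smooth muscle genes had a gap above 0 (Mylk, Tagln and Smtn had the largest, -0.18, -0.24 and -0.35). Of the 9, 7 were highest on KO 3, as were 9 of 10 hepatocyte genes and 4 of 4 erythroid genes. The share of all genes highest on KO 3 was not counted, so nothing is read from these counts. The smooth muscle genes had a median KO 3 minus WT 1 difference of 1.69. The share of signal of this list was 0.00810% on KO 3 and between 0.00338% and 0.00457% on the other 5. Of 11 adipocyte genes 6 had a gap above 0, with a median gap of 0.06, and 0 had a gap above 2. All 6 were among the 10 well above background on at least 2 arrays. Of all such genes 9.71% had a gap above 0. Adiponectin (Adipoq) read -1.46 on WT 1, 0.81 on KO 3, -2.82 on KO 2 and between -7.01 and -5.52 on the other 3, and Ucp1, the uncoupling protein of brown fat, read -2.51, -1.13, -4.19 and between -7.62 and -7.24. Fabp4 had a gap of 0.52, while Plin1 (0.20) and Cfd (0.06) were little above 0. Other genes of the list went the other way. Elovl3 (-4.57), Cidec (-2.50), Plin4 (-1.46), Cidea (-0.11) and Lep (-0.08) had gaps below 0, and Elovl3 was not well above background on KO 3. The adipocyte share of signal was 0.0171% on KO 3, 0.00509% on WT 1 and between 0.00176% and 0.00477% on the others. The part of smooth muscle and adipocyte transcripts in the differences of the members between KO 3 and WT 1 was not tested.

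Of 6 mesothelial genes, Lrrn4 alone had a gap above 0, at 0.57, with Gpm6a at -0.23 and Upk3b at -0.45. While 4 of the 6 were highest on KO 3, nothing is read from this count either, as no share of all genes stands beside it. Of 5 tendon genes, the matrix protein Thbs4 was well above background on WT 1 and KO 3 only (gap 2.64), with Chad at -0.01 and tenomodulin (Tnmd) at -0.08. Of 4 skin keratins, Krt1 (1.31), Krt14 (0.86) and Krt10 (0.01) had gaps above 0, the former pair on probes not well above background on any array. None of the 5 Schwann cell genes (Prx -0.40, Mbp -0.45), the 7 pancreatic acinar genes (Ctrb1 -0.32, Cel -0.71, Pnlip -0.83), the 4 erythroid genes (Hba-a1 -0.53, Hbb-bt -0.67) or the 10 hepatocyte genes (Trf -0.06, Fgb -0.11, Ttr -0.14) had one. The hepatocyte genes held between 1.21% and 1.51% of the signal on each array, with KO 3 the highest.

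The genotype comparison, the question the study was designed for, set the 3 knockout livers against the 3 wild-type livers in a limma fit over 17996 genes with Benjamini-Hochberg adjustment. Only 16 of the 42 members entered it, since the other 26 were not well above background on all 3 arrays of either genotype. None of the 16 passed an adjusted p of 0.05, against 1 of all genes (0.00556%). That gene was not Itpr2, which changed by -0.69 ± 0.13 with a limma adjusted p of 0.810. At an unadjusted p under 0.05, 1 member passed, Tnnt2, against 6.13% of all genes (3.47% higher and 2.66% lower in the knockout). With 1 array of each genotype holding the muscle transcripts, the median change of the 16 members was 0.12, and that of all genes 0.02. Their median standard error was 1.38, against 0.18 for all genes.

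Acta1 illustrates this, with a change of 0.24 ± 3.37 (SE, 3 against 3 livers, limma adjusted p = 0.995). Myl3 changed by 0.09 ± 2.97, Tnni2 by -0.44 ± 2.84 and Cox6a2 by -0.77 ± 2.78, also far below their errors. Tnnt2, which does not follow the 2 arrays, had a higher mean in the knockout by 1.42 ± 0.49, with a limma adjusted p of 0.810. Its levels were -3.58, -4.49 and -4.00 in wild type and -3.32, -2.97 and -1.51 in the knockout. Each knockout level lay above each wild-type level, but the share of all genes that separate by genotype was not counted. Nothing is therefore read from this separation. When the filter was loosened to genes well above background on at least 2 arrays, 41 members were tested and none passed the adjusted limma threshold, with 1 at an unadjusted p under 0.05.

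Without WT 1 and KO 3, the fit set 2 knockout livers against 2 wild-type livers, and the median standard error of the 16 members was 0.24, against 0.20 for all genes. No gene passed the adjusted threshold in that limma fit, and 6 of the 16 members had an unadjusted p under 0.05, against 6.86% of all genes. Tnnt2, Neb and Mylpf read higher in the knockout, by 1.10 ± 0.25, 1.21 ± 0.36 and 0.45 ± 0.17. Cox6a2, Cacna1s and Tnni2 read lower, by changes of -0.93 ± 0.25, -0.70 ± 0.24 and -0.69 ± 0.23. Their limma adjusted p-values lay between 0.592 for Tnnt2 and 0.710 for Mylpf. The second Cacna1s probe showed no decrease. It read -5.24 and -5.35 on WT 2 and WT 3, and -5.23 and -5.21 on KO 1 and KO 2. The second Neb probe was again higher in the knockout, at -2.88 and -1.67 on KO 1 and KO 2 against -3.52 and -3.78. The Mylpf change is that of its probe designed on the predicted transcript model. The 16 members had a median change of 0.03 in that fit.

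**Figure D4:**
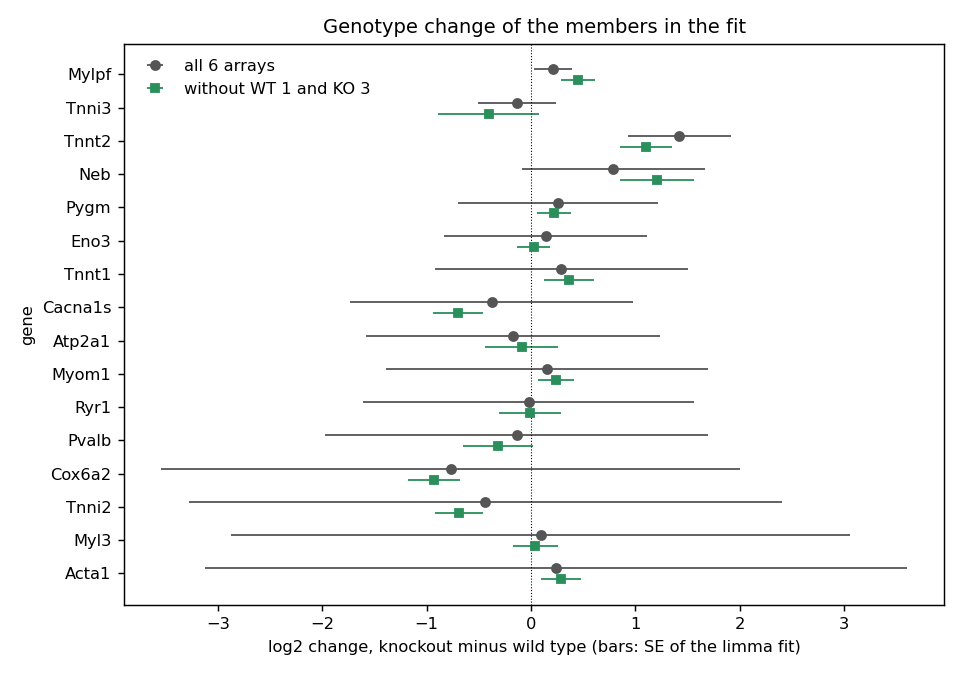
Change between genotypes (log2, knockout minus wild type, horizontal axis) of the 16 members that entered the limma fit, with all 6 arrays (grey circles) and without WT 1 and KO 3 (green squares); bars are standard errors of the fit. With all arrays the errors reach 3.37 for Acta1, and without the 2 arrays their median is 0.24.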

How the data were processed

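RNA from 3 wild-type livers and 3 Itpr2 knockout livers was hybridised to 1-colour Agilent arrays with 44397 spots each. The deposited scanner files hold the processed signal intensity, background-corrected by the authors' scanner software, Agilent Feature Extraction 11.5.1.1 per the file headers (10.7.3.1 per the submitters' processing notes). Control spots (1377 per array) and outlier spots (818 over all arrays) were left out, and replicate spots of a probe were averaged. Each intensity was divided by the 75th percentile of its array and taken to log2. The deposited table of the authors holds log2 values whose centring was not stated, with column medians between -0.013 and 0.011. It was used as an alternative, with its columns KO 2 and KO 3 matched to the scanner files by correlation.

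Probes were named through their accessions in the RefSeq gene table. Of 39429 probes, 28324 had 1 symbol, 0 had several and 11105 had none. Levels on WT 1 and KO 3 are described without a test. Genotypes were compared with limma 3.58.1 in R 4.3.3 (lmFit and eBayes, two-sided, Benjamini-Hochberg over all genes), which was also tested on simulated data. A probe entered if 1 genotype or both had it well above background on every array. The members and all gene lists were chosen with earlier results of these data known. Named genes were every member, the up to 3 genes of each other list with the largest gap, up to 15 genes in no list, and Itpr2. Some genes that this rule names are not reported here. The alternatives were other scalings (the array median, quantile normalization, normexp with an offset of 50 before quantile normalization, the authors' table), other filters, the mean of a gene's probes, outlier spots kept, slide and replicate blocks, and leaving out each array. Within-slide values were added after the data were seen. The labels call the mice of a group replicates, and p-values cover the spread between 3 livers per genotype. The number of arrays limits the precision.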

Additional observations from a re-analysis of the deposited data

How the results depend on the processing

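Under every scaling tried, the number of members with WT 1 and KO 3 above the other 4 arrays was between 37 and 39. It was 37 of 41 with normexp and 38 of 40 in the authors' table, which lacked Tnni3 and Myh6. The range also held with probes of a gene averaged, with outlier spots kept and with any of the other arrays left out. With each probe counted on its own, it was 51 of 55 probes. Among the members well above background on all 6 arrays it was 13 of 15. The median gap, 6.54 as reported, was 6.22 with the array median as scale and 2.05 with normexp before quantile normalization. It was 5.56 with every probe on its own and 3.14 for members well above background on all 6 arrays. With one of the other arrays left out it lay between 6.54 and 6.74. Leaving out one of them can only keep or raise a gap, so neither the count nor the median could fall there. Normexp with an offset raises dim values, which by its construction shrinks differences from arrays near background. The KO 3 minus WT 1 difference of the heart genes, 1.87 as reported, was 0.33 with normexp, 1.62 with the mean of all probes and 1.67 for those well above background on both arrays. The count of all genes past the genotype threshold, 1 as reported, was 0 with normexp, 0 with only genes well above background on all 6 arrays, 0 without WT 1 and KO 3, and between 0 and 1 with one array left out (0 without each array but WT 3). The count of members past it was 0 under every alternative. Same-numbered livers did not deviate together (r = -0.19, 0.04 and -0.28 for replicates 1, 2 and 3). These values gave no sign that the numbers pair the samples, but they cannot exclude a pairing. The fit with the replicate block called 0 genes. Signal over background limits the dim members, the heart genes above all, and a gap over arrays below background depends on how the background was set.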
